A study of Anopheles gambiae with 16 samples.

Results

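The probe set pairs described here are places where the Anopheles gambiae array carries both a probe set marked UTR and a probe set marked CDS for the same stem of the array ID. The stem is the part of the ID before the mark, as in Ag.2L.1.0, and a pair is a UTR row with the CDS row of its stem. The rule gave 674 pairs in 671 stems, out of 790 rows marked UTR, 14060 marked CDS, 2034 with neither mark and 16884 rows beginning with Ag. in a table of 22761 rows. A further 116 UTR rows and 13385 CDS rows had no partner. In 664 stems there was 1 row of each mark, in 4 stems there were 2 CDS rows, whose log2 values were averaged, and in 3 stems there were 2 UTR rows, which make 2 pairs that share a CDS row and are not independent. By the arm written in the ID, 142 pairs lay on 2L, 203 on 2R, 105 on 3L, 156 on 3R and 57 on X, and 11 carried UNKN in place of an arm. No ID matched the 15165 genes of the annotation at hand, so the pairs are given by ID with no gene name or role, and no coordinates or probe sequences were used here.

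The coding sequence (CDS) of a messenger RNA is the stretch that ribosomes translate into protein, and the untranslated regions (UTRs) flank it and carry elements that act on stability, localisation and translation. One gene can give transcripts that share a coding sequence and differ in their UTRs, through alternative promoters, splicing or polyadenylation sites, and tissues can differ in which of these forms they use. The mark in an ID says UTR without saying whether it is the 5′ or the 3′ one. Amplification of messenger RNA for expression arrays usually starts from the poly(A) tail, which lies next to the 3′ UTR.

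Each of the 16 arrays held RNA of adult G3 females, 1 to 2 days past eclosion, which the series text calls naive. There were 4 arrays in each of 4 groups, labelled as separate biological replicates: heads, circulating hemocytes (the blood cells of insects) and carcasses, all amplified in 2 rounds from 80 ng of total RNA, and carcasses amplified in 1 round from 1000 ng. Carcass means the body after hemolymph was drawn and the head taken off. Heads of 40 females or carcasses of 20 were pooled for a sample, so each array averages over animals. For hemocytes the labels conflict, with 1000 females in one entry and 500 in another that also calls the females infected. The source entry of head replicate 4 speaks of carcasses while every other entry of that sample says head. That array was kept as a head array, and results on heads were also computed without it. Hemocyte RNA was put straight into a column buffer and the other samples were first extracted with Trizol, so tissue and collection cannot be told apart, nor hemocytes and their extraction. In whole tissues, fewer cells of a type and less RNA per cell cannot be told apart either.

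Values are intensities, 1 per probe set and array, and were analysed as log2(intensity + 16). Background on an array was taken as the 95th percentile of the Pf. rows, which lay between 8.83 and 15.28 intensity units. Both rows of 317 pairs (47.0%) were above it on all 16 arrays, and both rows of 618 pairs were above it on at least 4 arrays. The UTR row lay at or below background on every array in 6 pairs and the CDS value in 22 pairs. The precision of each value is limited by the number of arrays, 4 a group.

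On every array the UTR row was brighter than the CDS row in most pairs. The difference UTR minus CDS, on the log2 scale and averaged over the arrays of a group, had a median over the 674 pairs of 1.66 in heads, 1.41 in hemocytes, 1.497 in 2-round carcasses and 0.65 in 1-round carcasses. Its quartiles were 0.59 and 2.82 in heads, 0.36 and 2.43 in hemocytes, 0.49 and 2.59 in 2-round carcasses and 0.01 and 1.33 in 1-round carcasses. The 2 rows of a pair are different probe sets with their own response, so the level within a group mixes abundance with probe response and was not tested against 0. Only changes of the difference between groups, in which a fixed response cancels, were tested.

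The median on single arrays was 1.58 to 1.77 in heads, 1.32 to 1.55 in hemocytes, 1.504 to 1.553 in 2-round carcasses and 0.54 to 0.74 in 1-round carcasses. The 4 arrays labelled in 1 round thus lay below all 12 others, which lay close together. The share of pairs with the UTR row above the CDS row was 84.0 to 85.9% on head arrays, 80.6 to 82.5% on hemocyte arrays, 83.2 to 85.3% on 2-round carcass arrays and 72.0 to 75.7% on 1-round carcass arrays. The CDS rows lay apart between the labellings and the UTR rows overlapped. Median UTR row intensity was 138 to 228 on the 2-round arrays and 91.8 to 159.9 on the 1-round arrays, while median CDS row intensity was 39.8 to 48.3 and 55.6 to 82.1.

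**Figure D1:**
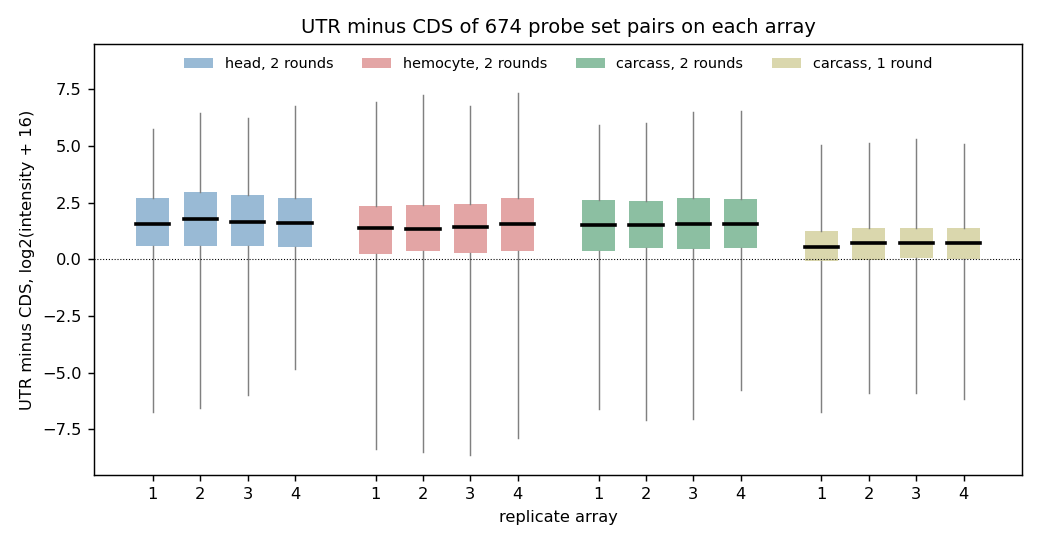
UTR minus CDS on the log2(intensity + 16) scale for the 674 pairs on each of the 16 arrays, by replicate array within the 4 groups. Boxes run from the lower to the upper quartile of the pairs, black lines mark the median, grey lines reach the lowest and highest pair, and the medians of the 1-round carcass arrays (0.54 to 0.74) lie below those of all 2-round arrays (1.32 to 1.77).

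Single pairs ranged far on both sides of these medians. In heads the group means ran from -5.93 (Ag.2L.168.0) to 6.10 (Ag.2R.461.0), in hemocytes from -8.34 (Ag.3L.191.0) to 7.07 (Ag.3R.217.0), in 2-round carcasses from -6.63 (Ag.3L.191.0) to 5.99 (Ag.2L.219.0) and in 1-round carcasses from -5.76 (Ag.3L.121.0) to 4.95 (Ag.3R.162.0). Some of these extremes are limited by background. The UTR row of Ag.2L.168.0 was above it on 1 of 4 head arrays, and the CDS row of Ag.3R.217.0 on 1 of 4 hemocyte arrays. Replicates spread much less than pairs did. The SD of the difference over the 4 arrays of a group had a median over pairs of 0.32 in heads, 0.33 in hemocytes, 0.30 in 2-round carcasses and 0.26 in 1-round carcasses. Pairs kept their order between tissues, with a Pearson r across the 674 pairs of 0.88 between heads and hemocytes. Pairs are not independent replicates, and part of that likeness is the fixed response of each probe set.

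The carcass arrays asked how far the UTR and CDS rows of one stem depended on the labelling of one tissue, and this comparison moved the pairs most. UTR minus CDS was called higher after 2 rounds than after 1 round in 295 of the 674 pairs (43.8%) and lower in 9 (1.34%), 304 in all (45.1%). A pair was called at an adjusted p under 0.05 (limma, Benjamini-Hochberg over the 674 pairs) and a change of at least 2-fold in the ratio. The median change was 0.84, 81.0% of pairs changed upwards, and the change reached 4-fold upwards in 81 pairs and downwards in 1. The arrays of the groups did not overlap in 400 pairs (59.3%). Among the 424 pairs with both rows above background on all 8 carcass arrays, refitted alone, 242 were called (57.1%), 236 higher and 6 lower, with a median change of 1.11. Labelling is tied to the amount of RNA put in, and the 2 cannot be told apart.

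The rows behind these calls moved apart. Taken singly, in a fit over all 16884 Ag. rows of which 7.29% were called higher and 2.61% lower after 2 rounds, 170 UTR rows were called higher and 13 lower, against 13 CDS values higher and 111 lower. The median change was 0.52 for the UTR rows and -0.25 for the CDS rows of the pairs, where the median over all Ag. rows was 0.12. In 20 pairs the UTR row was called higher and the CDS row lower, and no pair showed the reverse. A further 146 pairs had only the UTR row called higher and 88 only the CDS row called lower. Both rows were called the same way in 7 pairs, a count that was 16 with a pseudocount of 1, 3 with a pseudocount of 64 and 13 after quantile normalization. Partnered and unpartnered rows differed in the share called. Of the UTR rows, 25.2% were called higher in pairs and 12.1% of those with no partner, with medians of 0.52 and 0.57. Of the CDS rows, 16.5% were called lower in pairs and 1.88% of those with no partner, with medians of -0.25 and 0.10. On the carcass arrays the median CDS row of the pairs read 40.3 to 82.1, and the median over all Ag. rows 19.1 to 26.0. Dim rows reach a 2-fold call less easily with the pseudocount of 16. No test of these differences, or of the part of brightness in them, was made.

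Control probe sets on the same arrays moved as well. The 3′ over 5′ ratio of the actin control was 17.5 to 25.6 on head arrays, 11.8 to 14.6 on hemocyte arrays, 22.3 to 29.4 on 2-round carcass arrays and 2.22 to 2.93 on 1-round carcass arrays. That of the Gapdh control was 37.5 to 102 in heads, 36.4 to 59.5 in hemocytes, 27.3 to 41.2 in 2-round carcasses and 1.41 to 1.93 in 1-round carcasses. The part of the property these ratios measure in the change of the pairs was not tested.

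The largest rise after 2 rounds was in Ag.X.198.0. Its UTR row read 535, 651, 551 and 651 after 2 rounds and 37.4, 85.9, 143 and 53.2 after 1 round. The CDS row read 21.4, 23.1, 10.2 and 25.2, against 34.2, 45.6, 97.8 and 57.97, on the same arrays. Every UTR value after 2 rounds exceeded every one after 1 round, the CDS values lay the other way with no overlap, and 1 of the CDS values after 2 rounds was below background. UTR minus CDS averaged 4.11 ± 0.24 in 2-round and 0.30 ± 0.37 in 1-round carcasses (SD, n = 4 each), a change of 3.81 ± 0.24 (SE; limma, adjusted p = 1.8e-10).

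Ag.3R.217.0 rose almost as much and, at the pseudocount of 16, was also the pair with the largest opposite changes of its rows. The UTR row read 1520.2, 1668, 1692 and 1918 after 2 rounds and 277, 336, 468 and 314 after 1 round. Its CDS row read 12.6, 14.2, 7.86 and 11.7, against 83.2, 56.6, 78.5 and 42.1. Neither row overlapped between the groups, and only 1 of the 4 CDS values after 2 rounds was above background. UTR minus CDS changed by 3.78 ± 0.23 (SE; limma, adjusted p = 1.8e-10). The UTR row changed by 2.25 ± 0.17 (SE; limma over all Ag. rows, adjusted p = 2.35e-07) and the CDS row by -1.53 ± 0.17 (SE; limma, adjusted p = 1.4e-05). That CDS change was -2.37 with a pseudocount of 1 and -0.76, short of 2-fold, with a pseudocount of 64. In heads and hemocytes the same pair kept a high UTR row, at 1292 to 1812 and 3302 to 4208, and a CDS row near background, at 9.65 to 21.0 and 10.5 to 14.7.

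The other pair named for opposite changes, Ag.3R.206.0, was bright in both rows on all 8 carcass arrays. The UTR row of this pair read 2943, 2476, 2516 and 2614 after 2 rounds and 831, 813, 1423 and 842 after 1 round. The CDS row read 95.6, 92.6, 111 and 125, against 317, 262, 651 and 309.5. The groups did not overlap in either row. UTR minus CDS changed by 3.09 ± 0.22 (SE; limma, adjusted p = 1.1e-09).

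Among the 9 pairs that fell, Ag.2L.168.0 fell most. Its UTR row read 122, 444, 801 and 1192 after 2 rounds and 2138, 1905, 3586 and 3222 after 1 round. The CDS row read 11694, 12174, 12621 and 13756, and 10706, 11816, 13819 and 11903 after 1 round, where the brightest Ag. row of an array lay between 15122 and 18454. The UTR values did not overlap and the 2-round ones spread widely, while the CDS values overlapped and lay near the top of the range. UTR minus CDS averaged -4.65 ± 1.27 in 2-round and -2.19 ± 0.35 in 1-round carcasses (SD, n = 4 each), and fell by 2.46 ± 0.48 (SE; limma, adjusted p = 0.00016). The second, Ag.3R.272.0, fell by 1.58 ± 0.22 (SE; limma, adjusted p = 4.3e-06). Intensities of its UTR row were 32.4, 61.9, 46.2 and 61.2 after 2 rounds and 133, 158, 238 and 127 after 1 round, without overlap. The CDS row read 74.7, 129, 129 and 122, against 85.3, 118, 134 and 68.01, with overlap.

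**Figure D2:**
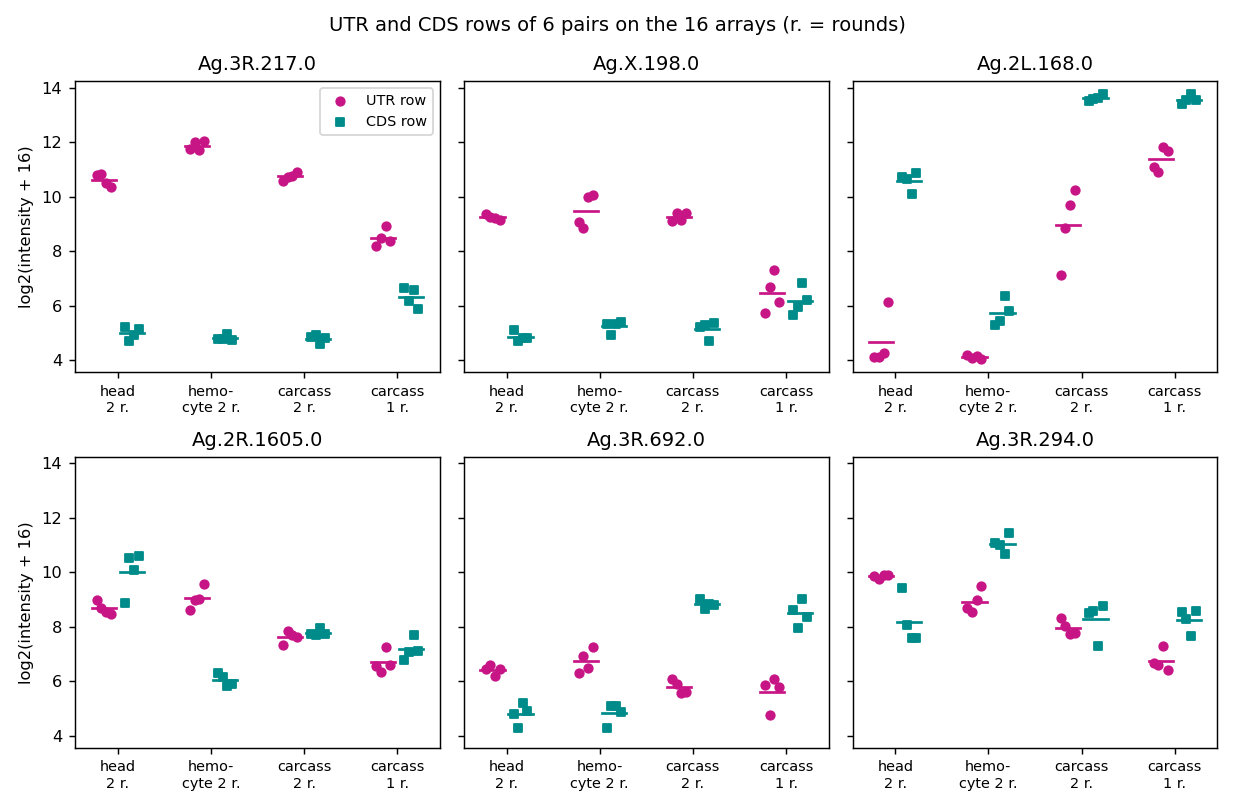
The UTR row (circles) and CDS row (squares) of 6 pairs on the 16 arrays, as log2(intensity + 16), with lines at the group means. Ag.3R.217.0 and Ag.X.198.0 show rows that lie far apart on all 2-round arrays and closer together on the 1-round arrays, Ag.2L.168.0 a UTR row that is lower after 2 rounds than after 1 round, and Ag.2R.1605.0, Ag.3R.692.0 and Ag.3R.294.0 differences between tissues.

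The pairs were also ordered by their level on the head and hemocyte arrays. These took no part in the labelling comparison but were all labelled in 2 rounds, so this order is not independent of the change it is set against and is given as a description. Ordered by the mean level of the UTR row on the 8 head and hemocyte arrays and cut into 4 bins, which spanned 1.97 to 51.6, 52.4 to 181.1, 181.2 to 601 and 604 to 8428 intensity units, the pairs had median changes between labellings of 0.07, 0.66, 1.16 and 1.59 from the dimmest bin to the brightest. The share called higher was 7.74% (13 of 168), 29.6% (50 of 169), 58.9% (99 of 168) and 78.7% (133 of 169). The level of the CDS row ordered them less, with medians of 0.27, 0.92, 1.04 and 1.07. Ordered by UTR minus CDS on the same 8 arrays, the medians were 0.20, 0.52, 1.09 and 1.73 and the pairs called higher 22, 42, 94 and 137. The pairs called higher had a median UTR minus CDS of 2.63 in heads and 2.24 in hemocytes, those not called 0.94 and 0.78, and the 9 called lower -1.14 and -1.60. Across the 674 pairs the change between labellings had a Pearson r of 0.64 with UTR minus CDS in heads, a description over pairs that share arrays of one platform and a probe response each. In the dimmest bin the pseudocount holds changes near 0, and its part in this order was not tested.

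**Figure D3:**
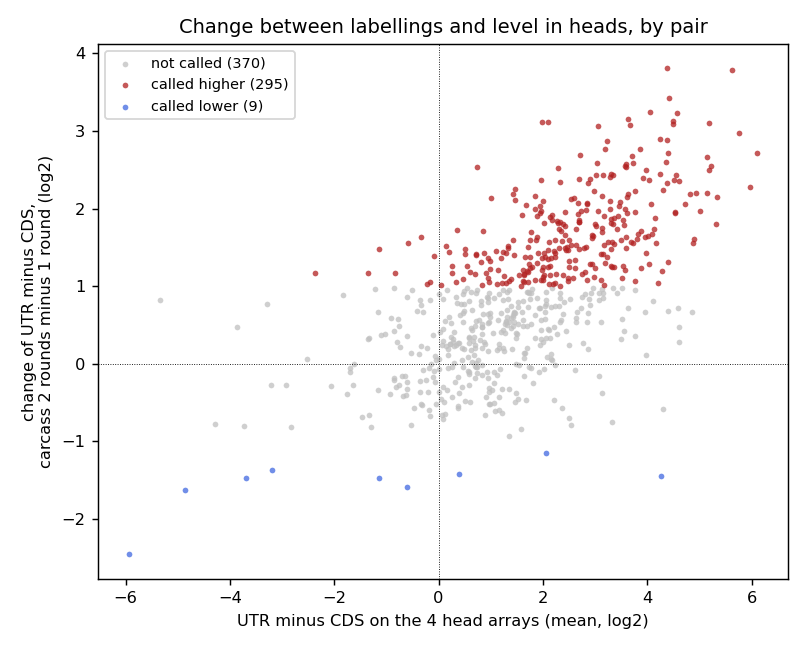
Change of UTR minus CDS from 1 round to 2 rounds in carcasses (vertical axis, log2) against the mean UTR minus CDS on the 4 head arrays (horizontal axis, log2), 1 point for each of the 674 pairs. The 295 pairs called higher lie mostly to the right, where the UTR row is the brighter one in heads, and the 9 called lower are scattered with 6 of them left of 0.

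Pairs that rose were found on every arm and in every ID type. The median change was 0.82 to 0.97 on the arms 2L, 2R, 3L, 3R and X, and 0.25 for the 11 pairs with UNKN, of which 2 were called higher. It was 0.84 for UTR rows ending in _a_at, 0.82 for those ending in _at and 1.06 for the 47 ending in _s_at. The 323 pairs in which every row ended in plain _at had a median of 0.84 with 138 called higher, and the others had a median of 0.86 with 157 of 351 called higher. In 65 pairs (9.64%) the endings of the UTR and CDS rows differed. Pairs named below with _a_at and _s_at were Ag.2R.1605.0, Ag.3R.294.0 and Ag.2R.274.0. Those with _at and _a_at included Ag.2R.562.0, Ag.3R.292.0 and Ag.2R.289.15. Whether rows with different endings report the same transcripts was not tested.

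Between tissues labelled alike the pairs changed in fewer cases and around a median near 0. The tissue comparisons share groups with one another, and hemocytes over carcasses, hemocytes over heads and heads over carcasses are therefore given side by side with no correlation between them. Of the 674 pairs 502 (74.5%) were called in none of these 3 comparisons, 68 in 1, 95 in 2 and 9 in all 3. Counting the labelling comparison too, 287 pairs were called nowhere and 8 in all 4.

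For hemocytes over 2-round carcasses, which asks whether UTR and CDS rows report the same difference between blood cells and the rest of the body, 98 pairs were called (14.5%), 32 higher (4.75%) and 66 lower (9.79%) in hemocytes. The median change was -0.04, 46.1% of pairs changed upwards, and the arrays did not overlap in 178 pairs (26.4%). After quantile normalization the calls split into 17 higher and 69 lower. In 28 of the 98 at least 1 row lay below background on all 4 arrays of a group. Among the 353 pairs with both rows above background on all 8 arrays, refitted alone, 35 were called (9.92%), 13 higher and 22 lower.

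Ag.3R.692.0 had the largest rise in hemocytes over carcasses. Its UTR row read 62.9, 105, 74.2 and 135 in hemocytes and 52.1, 43.03, 31.2 and 32.97 in carcasses. Its CDS row read 3.34, 17.9, 17.8 and 13.4, against 502, 385, 445 and 431. The UTR row was brighter in hemocytes on every array and the CDS row far dimmer, with 1 CDS value below background and no overlap in either row. UTR minus CDS was 1.91 ± 0.40 in hemocytes and -3.04 ± 0.24 in carcasses (SD, n = 4 each), a change of 4.95 ± 0.26 (SE; limma, adjusted p = 2.5e-11). The UTR row alone changed by 0.95 ± 0.26 (SE), short of 2-fold, and the CDS row by -4.00 ± 0.24 (SE; limma, adjusted p = 2.6e-09). Of the groups compared, only carcasses had both rows above background on all 4 arrays. With the CDS row near background in hemocytes, this rise mostly restates its level in carcasses.

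In Ag.2R.1605.0 both rows were called and in opposite directions, the only such pair between tissues. Its UTR row ends in _a_at and its CDS row in _s_at, and whether they report the same transcripts was not tested. The UTR row read 379, 489, 509 and 741 in hemocytes and 145, 212, 189 and 183 in carcasses. The CDS row read 62.95, 55.5, 40.1 and 43.6, against 195, 189, 231 and 198. All 16 values were above background, and the groups did not overlap in either row. The UTR row was 2.69-fold higher in hemocytes and the CDS row 3.32-fold lower, and UTR minus CDS changed by 3.16 ± 0.36 (SE; limma, adjusted p = 1.5e-06).

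The largest falls among pairs with no overlap and both rows above background on all 4 arrays of at least 1 group were in Ag.2R.378.0 and Ag.3R.292.0. Both met that limit through carcasses alone, where their rows were brighter. Ag.2R.461.0, outside that limit, fell by 4.77. In Ag.2R.378.0 the UTR row read 5.75, 15.5, 10.5 and 15.2 in hemocytes, 2 of them below background, and 1442, 1922, 1865 and 1926 in carcasses. Its CDS row read 8.67, 13.1, 15.4 and 14.4, 1 of them below background, and 61.2, 59.9, 48.3 and 51.8. Both rows were thus lower in hemocytes without overlap, the UTR row far more so on this scale. UTR minus CDS fell by 4.72 ± 0.32 (SE; limma, adjusted p = 9.0e-10). The second, Ag.3R.292.0, fell by 4.30 ± 0.39 (SE; limma, adjusted p = 4.9e-08). There the UTR row read 21.98, 8.13, 23.5 and 44.7 in hemocytes and 1541, 2269, 830.0 and 1842 in carcasses, and the CDS row 17.6, 13.8, 15.2 and 4.06, against 28.9, 47.6, 36.4 and 55.2, with 1 hemocyte value of each row below background and no overlap. Since the pseudocount compresses values near background, falls of this kind depend on the dim CDS row as well as on the bright UTR row. With both rows near background in hemocytes, UTR minus CDS averaged -0.07 and 0.45 there, against 4.66 and 4.75 in carcasses. These falls thus mostly restate the carcass levels.

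Ag.2R.289.15 and Ag.3L.187.0, above background in both rows on all 8 arrays, were chosen after their values were seen, for the size of their change. The CDS row of Ag.2R.289.15 read 135, 135, 256 and 156 in hemocytes and 968, 1438, 1133 and 1487 in carcasses, while its UTR row read 109.9, 133, 125 and 133, against 93.5, 116, 122 and 92.1. The CDS values lay apart and the UTR values overlapped. UTR minus CDS rose by 3.01 ± 0.23 (SE; limma, adjusted p = 5.1e-09). In Ag.3L.187.0 it was the UTR row that moved, from 510.3, 519, 465 and 417 in carcasses to 22.4, 21.2, 25.96 and 47.9 in hemocytes. The CDS row of that pair read 42.2, 30.4, 27.7 and 38.9, against 15.2, 20.9, 19.3 and 29.9. UTR minus CDS fell by 3.03 ± 0.23 (SE; limma, adjusted p = 5.1e-09), with the UTR values far apart and the CDS values overlapping through 1 hemocyte array. Both rows of that pair lay little above background in hemocytes.

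For hemocytes over heads 120 pairs were called (17.8%), 24 higher (3.56%) and 96 lower (14.2%) in hemocytes, so the lower calls outnumbered the higher ones here as in the comparison with carcasses. The median change was -0.21, 36.9% of pairs changed upwards, and 204 pairs (30.3%) did not overlap. At least 1 row was below background on all 4 arrays of a group in 32 of the called pairs. Of the 350 pairs above background throughout, refitted alone, 45 were called (12.9%), 10 higher and 35 lower, and the median change was -0.23. Without head replicate 4, 123 pairs were called. The arrays of this comparison took no part in the labelling comparison. Of the 96 pairs called lower in hemocytes, 47 (49.0%) were called higher after 2 rounds, where 43.8% of all pairs were, and these 47 were 15.9% of the 295.

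Ag.2R.1605.0 also had the largest rise in hemocytes over heads. The UTR row gave 487, 397, 361 and 338 in heads and its CDS row 448, 1451, 1079 and 1517, beside the hemocyte values given above. The UTR values overlapped between these groups, and the CDS values did not, the lowest head array reading 448 and the highest hemocyte array 63.0. UTR minus CDS was 3.01 ± 0.57 in hemocytes and -1.34 ± 1.00 in heads (SD, n = 4 each), a change of 4.35 ± 0.36 (SE; limma, adjusted p = 1.9e-08). Over the 3 tissues the CDS row of this pair was highest in heads and lowest in hemocytes, while the UTR row was lowest in carcasses.

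Within the same limit on background the next rise was in Ag.2R.562.0, where the rows differed in opposite directions. Its UTR row ends in _at and its CDS row in _a_at. The UTR row read 61.8, 74.1, 125 and 98.9 in hemocytes and 38.5, 45.1, 43.9 and 36.2 in heads. Its CDS row read 38.8, 40.2, 71.8 and 74.9, against 175, 165, 138 and 172. No values overlapped in either row, and all were above background. UTR minus CDS rose by 2.20 ± 0.21 (SE; limma, adjusted p = 1.9e-07), of which the UTR row gave 0.86 ± 0.20 (SE), short of 2-fold.

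Ag.3R.294.0 showed the largest fall in hemocytes over heads among pairs with no overlap and both rows above background on all 4 arrays of at least 1 group, while Ag.2R.461.0, outside that limit, fell by 4.96. In Ag.3R.294.0, whose UTR row ends in _a_at and CDS row in _s_at, the rows again lay in opposite order, the UTR row by less than 2-fold. The UTR row read 394, 352, 494 and 705 in hemocytes and 923, 837, 929 and 939 in heads. The CDS row read 2141, 2033, 1605 and 2791, against 665, 255, 175 and 174. Every hemocyte array was below every head array in the UTR row and above every one in the CDS row, and head replicate 1 was the highest head array in the CDS row. UTR minus CDS fell by 3.81 ± 0.41 (SE; limma, adjusted p = 8.5e-07). In Ag.2R.274.0, which fell by 3.66 ± 0.41 (SE; limma, adjusted p = 1.3e-06), both rows were lower in hemocytes. Its UTR row read 50.2, 10.1, 177 and 146 in hemocytes and 6916, 7068, 4993 and 5858 in heads, and the CDS row 22.4, 6.94, 20.3 and 8.08, against 211, 173, 107 and 139. There 1 UTR value and 2 CDS values of hemocytes were below background, and the groups lay far apart in both rows. This pair met the limit on background through heads alone, where its rows were brighter. UTR minus CDS averaged 1.53 ± 1.24 in hemocytes and 5.19 ± 0.18 in heads (SD, n = 4 each). With the CDS row near background in hemocytes, that fall depends on the compressed values there.

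For heads over 2-round carcasses 67 pairs were called (9.94%), 46 higher (6.82%) and 21 lower (3.12%) in heads, the smallest count of the 4 comparisons. The median change was 0.12, 62.6% of pairs changed upwards, and 144 pairs (21.4%) did not overlap. In 12 called pairs a row was below background on all 4 arrays of a group. Among the 388 pairs above background throughout, refitted alone, 37 were called (9.54%), 26 higher and 11 lower. Without head replicate 4 the count was 70.

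The largest rise was again in Ag.3R.692.0, whose head values were near those of hemocytes. In heads its UTR row read 71.2, 80.6, 57.2 and 72.2 and its CDS row 11.5, 3.29, 20.5 and 14.3, 2 of them below background. The CDS row thus lay at or near background in heads and hemocytes and was bright in carcasses of both labellings, reading 385 to 502 on 2-round arrays and 234 to 509 on 1-round arrays. UTR minus CDS changed by 4.68 ± 0.26 from carcasses to heads (SE; limma, adjusted p = 7.2e-11). Here too only carcasses had both rows above background on all 4 arrays, and the rise mostly restates the CDS level in carcasses.

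Ag.3R.294.0 rose by 2.02 ± 0.41 (SE; limma, adjusted p = 0.0016). Intensities of its UTR row were 299.8, 242, 194 and 203 in carcasses, below every head array, and its CDS row 348, 362, 141 and 422, overlapping with heads. Over the 3 tissues its UTR row was highest in heads and its CDS row in hemocytes. The falls were in Ag.2R.378.0, by 3.46 ± 0.32 (SE; limma, adjusted p = 3.0e-07), and Ag.3R.292.0, by 2.77 ± 0.39 (SE; limma, adjusted p = 6.9e-05). In heads the UTR row of Ag.2R.378.0 read 29.9, 56.5, 58.7 and 109 and its CDS row 25.04, 1.86, 29.1 and 18.4. The UTR row of Ag.3R.292.0 read 123, 91.9, 68.03 and 55.97 and its CDS row 2.14, 17.8, 15.6 and 3.48. Head levels of both UTR rows lay between those of hemocytes and carcasses on every array, and some head values of the CDS rows were below background. Both pairs thus met the limit on background through carcasses alone. With a pseudocount of 1 the fall of Ag.3R.292.0 was 1.85 and no longer passed (limma, adjusted p = 0.13).

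**Figure D4:**
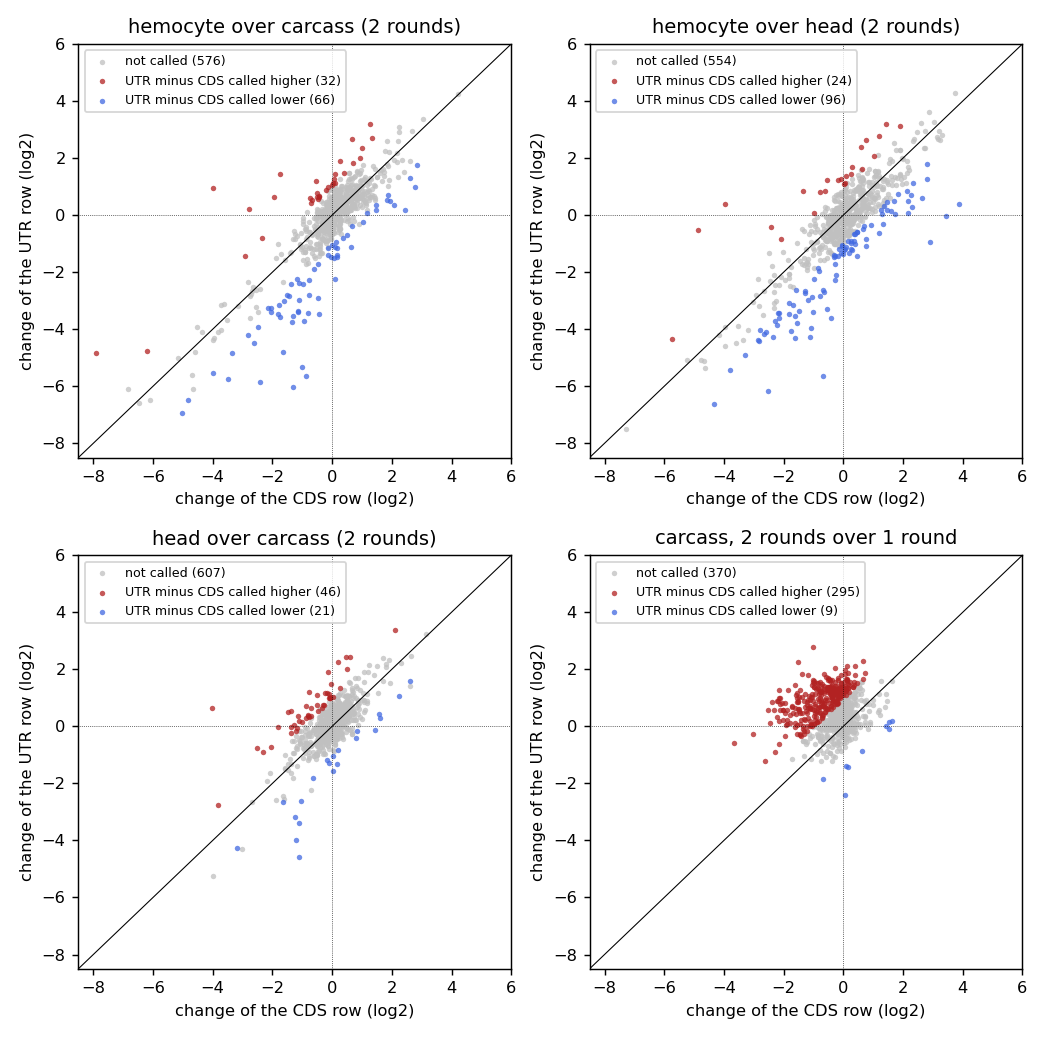
Change of the UTR row (vertical axis, log2) against change of the CDS row (horizontal axis, log2) for the 674 pairs in the 4 comparisons, coloured by whether UTR minus CDS was called higher or lower. Between tissues most pairs lie along the diagonal of equal change, and between labellings of carcasses the 295 pairs called higher lie above it, most with the UTR row up and the CDS row down.

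Between tissues, where a row of a pair was called, the rows mostly changed in the same direction, though often not by the same amount. In hemocytes over carcasses 206 UTR rows and 161 CDS values were called, and both rows in the same direction in 115 pairs (47 higher and 68 lower), where 18.9% of all Ag. rows were called (10.7% higher and 8.17% lower). These 115 were 55.8% of the UTR rows called and 71.4% of the CDS values called. In hemocytes over heads, where 20.4% of all Ag. rows were called (11.1% higher and 9.3% lower), both rows went the same way in 146 pairs (64 higher and 82 lower), or 64.3% of 227 called UTR rows and 73.0% of 200 called CDS values. In heads over carcasses, where 9.69% of all Ag. rows were called (5.02% higher and 4.67% lower), this was so in 47 pairs (21 higher and 26 lower), or 47.0% of 100 and 54.7% of 86. In 2 over 1 rounds, with 9.89% of all Ag. rows called, the 7 pairs called the same way, a count that moved with the pseudocount and the scaling as given above, were 3.83% of 183 called UTR rows and 5.65% of 124 called CDS values. When only 1 row of a pair was called between tissues, the other changed in the same direction in 122 of 135 pairs, 117 of 135 and 72 of 92, against 93 of 253 between labellings. In those tissue comparisons UTR minus CDS was itself called in 46, 66 and 39 of the pairs with only 1 row called. It was called in 37 of the 115, 39 of the 146 and 11 of the 47 pairs called the same way. Of all pairs, 14.5%, 17.8% and 9.94% were called. Brightness differs between the rows and bears on which of them can reach a call, and its part in these counts was not tested.

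Ag.3L.22.1 and Ag.3R.819.0 had the largest joint rises in hemocytes over carcasses. The UTR row of Ag.3L.22.1 read 1728, 1435, 2057 and 1757 in hemocytes, 80.6, 83.8, 62.9 and 66.2 in heads and 67.4, 64.3, 68.4 and 113 in carcasses. Its CDS row read 452, 406, 398 and 391 in hemocytes, 14.98, 28.4, 9.17 and 14.8 in heads and 8.36, 8.22, 10.4 and 2.33 in carcasses, where no value was above background. Both rows were thus far brighter in hemocytes than in either other tissue, with no overlap. The UTR row rose by 4.24 ± 0.20 over carcasses and 4.30 ± 0.20 over heads (SE; limma over all Ag. rows, adjusted p = 1.6e-10 and 2.7e-10). The CDS row was at least 29.2-fold higher than in carcasses, a bound set against the higher of background and measured value on each dim array (limma, adjusted p = 2.8e-11). For Ag.3R.819.0 the UTR row read 1039, 1001, 1639 and 1311 in hemocytes and 74.1, 93.1, 143 and 110.1 in carcasses, and the CDS row 422, 424, 525 and 422, against 30.95, 43.3, 37.4 and 52.4. These rows rose by 3.39 ± 0.23 and 3.03 ± 0.18 (SE; limma, adjusted p = 8.4e-09 and 2.1e-09), and UTR minus CDS was not called (adjusted p = 0.19 over the pairs).

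Joint falls were larger still. The pair with the largest joint fall in hemocytes over carcasses and in heads over carcasses, which lies on arm 3L and whose UTR row ends in _s_at, was bright in carcasses, with a UTR row at 6123, 4208, 6571 and 5835 and a CDS row at 3785, 4851, 6016 and 6283. In hemocytes its UTR row read 27.9, 16.2, 147 and 34.3 and its CDS row 40.8, 7.13, 81.3 and 74.4, with 3 of these CDS values above background. In heads the UTR row read 37.1, 60.8, 89.8 and 1093 and the CDS row 330.4, 243, 221 and 522. Head replicate 4, the array with the conflicting label, stood above the other head arrays in both rows and below every carcass array. In hemocytes over carcasses the rows changed by -6.59 ± 0.72 and -6.46 ± 0.37 (SE; limma, adjusted p = 2.4e-06 and 1.5e-09). In heads over carcasses the UTR row changed by -5.25 ± 0.72 with head replicate 4 and by -6.22 without it, and the CDS row by -3.98 ± 0.37 and -4.22 (SE; limma, adjusted p at most 5.4e-05 for all 4). Ag.3R.169.0 fell alike in hemocytes over carcasses, its UTR row reading 22.9, 9.72, 20.00 and 23.6 against 2721, 2954, 3058 and 3499.7 and its CDS row 17.2, 16.5, 11.4 and 28.9 against 2164, 2566, 2212 and 2309.8. In each of its rows 3 of the hemocyte values were above background.

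Further pairs moved together in comparisons with heads. Ag.2L.26.0 was higher in hemocytes than heads in its UTR row, at 2570.0, 2623, 3868 and 3689.8 against 231, 402, 359.6 and 289, and in its CDS row, at 145, 159, 304 and 202 against 6.19, 20.9, 9.44 and 4.11, with 3 head values of the CDS row below background. Ag.2L.3.0 was lower in hemocytes, with a UTR row at 5.17, 14.2, 15.99 and 1517 against 14878, 15128, 12351 and 11519 and a CDS row at 4.37, 1.93, 15.01 and 75.2 against 9392, 4559, 3482 and 3946. Of these hemocyte values, 3 of the UTR row and 2 of the CDS row were above background. Hemocyte replicate 4 stood far above the other hemocyte arrays in both rows of that pair and below all head arrays. The rows changed by -7.48 ± 0.92 and -7.28 ± 0.41 (SE; limma, adjusted p = 6.7e-06 and 1.6e-09). Ag.2R.300.0 fell as well, its UTR row reading 44.3, 50.4, 76.2 and 80.7 in hemocytes and 1230.1, 3608, 3112 and 3209 in heads. Below background on all 4 hemocyte arrays, its CDS row was lower there by at least 53.5-fold than in heads, where it read 271, 962, 768 and 1101.

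In heads over carcasses Ag.3L.148.0 rose in its UTR row, from 310.3, 456, 349.6 and 662 in carcasses to 7531, 3066, 3497 and 3564 in heads, and in its CDS row, from 11.8, 45.1, 36.8 and 34.1 to 982, 241, 304 and 334. Of the carcass values of that CDS row, 3 were above background. The groups did not overlap, head replicate 1 was the highest in both rows, and UTR minus CDS kept a mean of 3.33 in heads and 3.26 in carcasses. Ag.2R.967.0 rose by 2.46 ± 0.22 in the UTR row and 2.65 ± 0.26 in the CDS row (SE; limma, adjusted p = 4.0e-07 and 1.3e-06), the latter 1.61 with a pseudocount of 64. Ag.2R.507.1 fell in heads, its UTR row reading 24.2, 73.5, 34.9 and 27.01 in heads and 1019.8, 1386, 874 and 854 in carcasses and its CDS row 18.5, 25.6, 4.26 and 11.8, against 229, 366, 175 and 295. Only 2 of these head values of the CDS row were above background, so the fall of that row is understated. On this scale the UTR row fell further, and UTR minus CDS was called lower in heads as well (-1.09 ± 0.24, SE; limma, adjusted p = 0.0030). With the CDS row at background, that call cannot show which row fell further.

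Of the 7 pairs that moved together between labellings, Ag.2R.778.0 rose after 2 rounds with a UTR row at 623, 528, 243 and 471 against 147, 121, 126 and 146 and a CDS row at 350.1, 449.9, 169 and 480.1 against 97.9, 90.2, 89.7 and 113. Carcass replicate 3 was the lowest of the 2-round arrays in both rows and still above all 1-round arrays. Ag.3R.399.0 rose by 1.58 ± 0.25 and 1.25 ± 0.22 in its UTR and CDS rows (SE; limma, adjusted p = 0.00025 and 8.0e-04), and with a pseudocount of 64 its CDS row changed by 0.83, short of 2-fold. Ag.X.67.0 fell, its UTR row reading 1072, 1360.1, 958 and 1229 after 2 rounds and 2787, 2616, 2655 and 2599 after 1 round and its CDS row 940.1, 716, 713 and 911, against 5245, 4477, 5336 and 5319.5. Both rows were lower after 2 rounds without overlap, but the CDS row fell more, and UTR minus CDS was called higher by 1.41 ± 0.21 (SE; limma, adjusted p = 6.1e-06). Ag.2L.252.0 fell by 1.15 ± 0.17 in its UTR row and 1.71 ± 0.17 in its CDS row (SE; limma, adjusted p = 2.0e-04 and 5.9e-06).

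**Figure D5:**
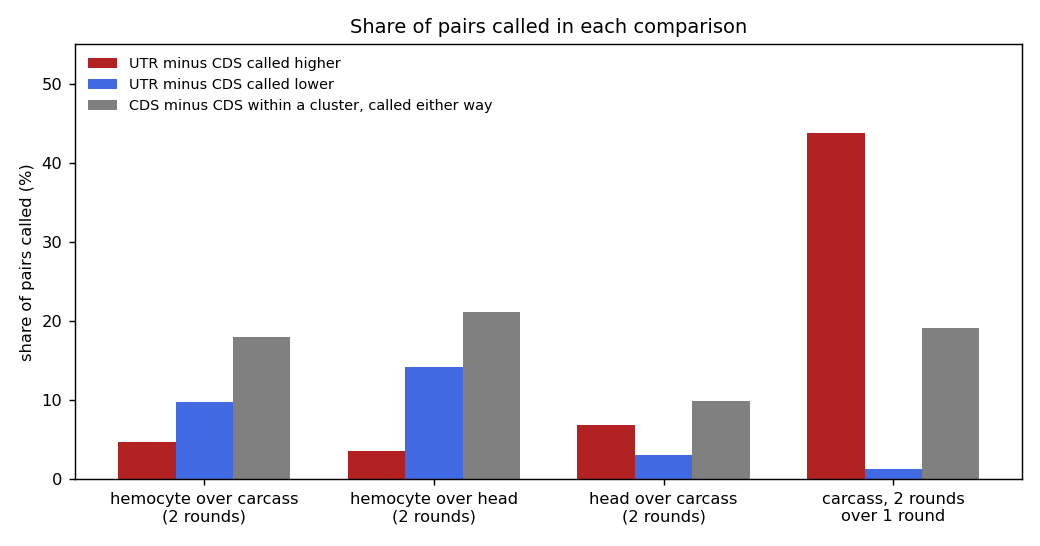
Percent of the 674 pairs with UTR minus CDS called higher or lower in each comparison, with no limit on background. Beside it is the percent of 444 differences between CDS rows of one cluster called either way, which join rows of different stems. The bar of pairs called higher reaches 43.8% between labellings of carcasses and 3.56 to 6.82% between tissues.

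Differences between CDS rows of different stems were set beside these shares, though a pair holds rows of the same stem. In 444 clusters of Ag. IDs that differ only in their last number, the CDS rows with the lowest 2 last numbers were subtracted from each other and fitted in the same way. Between tissues, and with no limit on background, such differences were called about as often as UTR minus CDS. The shares were 18%, 21.2% and 9.91% in hemocytes over carcasses, hemocytes over heads and heads over carcasses, against 14.5%, 17.8% and 9.94% of the pairs. Between labellings CDS minus CDS differences were called in 19.1%, against 45.1% of the pairs. The median size of change between labellings was 0.41 for CDS minus CDS and 0.90 for the pairs, and between tissues 0.38, 0.39 and 0.33 against 0.38, 0.44 and 0.33. Where rows were above background on all 8 arrays, 38.1% of 118 CDS minus CDS differences and 57.1% of 424 pairs were called between labellings. Under that limit the tissue comparisons, in the same order, gave 17.3% of 81, 17.3% of 75 and 7.78% of 90 CDS minus CDS differences. The pairs gave 9.92% of 353, 12.9% of 350 and 9.54% of 388. The shares come from separate fits over different rows, and their difference was not tested.

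Over the 12 arrays labelled in 2 rounds, the UTR and CDS rows of a pair had a median Pearson r of 0.67 among the 618 pairs with both rows above background on at least 4 arrays, with quartiles of 0.33 and 0.89. The r was above 0.9 in 135 pairs and below 0 in 62. It was higher where the UTR row itself differed between tissues, with a median of 0.88 in the 296 pairs whose UTR row was called in a tissue comparison and 0.47 in the other 322. Those calls rest on the same arrays as r, and choosing rows with large differences between tissues favours a higher r. Over all 16 arrays the median was 0.49. The arrays share tissue groups and scaling, so these values describe the pairs and carry no p.

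In the 7 stems with a repeated mark the rows of one mark also differed. The UTR rows of Ag.UNKN.138.0 changed by 0.36 and 1.45 from 1 round to 2 rounds, those of Ag.2R.1294.0 by -0.29 and 0.93, and those of Ag.2R.413.0 by 0.36 and -0.56, with only the larger change of Ag.UNKN.138.0 reaching a call (limma over all Ag. rows, adjusted p = 3.7e-05). The repeated CDS rows of Ag.2R.6.0 had a Pearson r of 0.98 over the 16 arrays and those of Ag.3R.350.0 of 0.80, whereas those of Ag.2R.1778.0 and Ag.2R.2263.0 had 0.19 and -0.05. Both CDS rows of Ag.2R.6.0 fell after 2 rounds, by 1.64 and 1.39 (limma, adjusted p = 3.5e-05 and 5.5e-05), and so did those of Ag.3R.350.0, by 1.20 and 0.98, the second short of 2-fold.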

How the data were processed

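RNA of 16 samples in 4 groups of 4 was measured on an Affymetrix-type array. The authors deposited linear intensity values, 1 per probe set and array, made with GCOS 1.4 per the submitters' processing notes. The steps of summary, background correction and scaling were not given in the sources used here. All deposited intensities were above 0, and no further normalization was applied. Array groups followed the title, description and tissue entries. Pairs, lists and tests were chosen with earlier results of these data known.

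Values were taken as log2(intensity + 16), so folds of dim rows are understated. UTR minus CDS was computed within each array and fitted by lmFit and eBayes of limma 3.58.1, under R 4.3.3, in a model of 4 groups with 12 residual degrees of freedom and Benjamini-Hochberg adjustment over 674 pairs. Single rows were fitted over all 16884 Ag. rows. Both were tried on simulated data with independent normal errors on the log2 scale. Those data held no background floor and no link between samples, so they do not bear on dim rows or on paired samples. Calls combine an adjusted p under 0.05 with a 2-fold minimum. Median centring of arrays cancels in UTR minus CDS. Pf. rows were read as probe sets of another organism from the prefix alone, and served only to set background. A row below background on all 4 arrays of a group has only a bound there.

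Named are, per comparison, the 2 largest rises and 2 largest falls among called pairs with no overlap and with both rows above background in at least 1 group, the 2 largest joint rises and falls, and the 2 pairs with the largest opposite changes, 1 of the joint falls being given by its arm without its ID. No pair of identical arrays was found, and the labels call the samples biological replicates. Same-numbered samples deviated together only between the 2 carcass groups, where the correlation of deviations from the group means over 13061 bright rows was 0.24 to 0.54, against -0.37 to 0.02 for other numbers. There the numbers were taken to pair the samples, from the data and not from a label. Alternatives were the pseudocount, scaling, dim-row filters, ID endings, variance model, fold minimum, a replicate block and leaving out each array.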

Additional observations from a re-analysis of the deposited data

Results flagged for a closer look

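Among 140 groups of 4 values tested for a single array far from the others, 6 held one, and chance flags about 1 in 20. The median UTR minus CDS of 1-round carcass replicate 1 was 0.54, where the other 3 arrays lay between 0.72 and 0.74. In the same array Ag.2R.378.0 had a UTR minus CDS of 2.82, against 3.40 to 3.47 on the others. In 2-round carcasses Ag.3L.22.1 read 2.81 on replicate 4, against 1.68 to 1.78, where its CDS row lay below background on every array. Ag.3R.819.0 read 1.57 on 2-round carcass replicate 3, against 0.88 to 0.94. In heads Ag.X.11.0 read -0.61 on replicate 3, against -1.29 to -1.23, and Ag.2R.778.0 read 0.94 on replicate 1, against -0.04 to 0.07. The count of pairs called between labellings was 293 without 1-round carcass replicate 1 and 304 with it.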

How the results depend on the processing

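Of 134 recomputed counts of called pairs, 117 lay within 1.5 times the reported ones. The median change of UTR minus CDS kept its sign under every alternative tried, from 0.57 to 1.11 between labellings, 0.09 to 0.17 in heads over carcasses, -0.15 to -0.0045 in hemocytes over carcasses and -0.34 to -0.12 in hemocytes over heads. In the order hemocytes over carcasses, hemocytes over heads, heads over carcasses and 2 rounds over 1 round, UTR minus CDS was called in 98, 120, 67 and 304 pairs, in 40, 56, 24 and 144 of the 323 pairs with plain _at rows, and in 175, 232, 123 and 444 with no fold minimum. With both rows above background on all 8 arrays it was called in 35, 45, 37 and 242, a restriction chosen after seeing the data. Fewer pairs were tested under the first and last of these. With a pseudocount of 64 the count for heads over carcasses was 37. Pairs with both rows called the same way numbered 115, 146, 47 and 7, and 76, 95, 29 and 3 with a pseudocount of 64, which shrinks changes of dim rows by construction. Between labellings that count was 16 with a pseudocount of 1 and 13 after quantile normalization, which turned the split from 4 higher and 3 lower to 2 higher and 11 lower. The cause was not tested. Leaving out 1 array at a time gave 95 to 108, 116 to 133, 57 to 70 and 293 to 308 pairs for UTR minus CDS, and 111 to 117, 136 to 147, 43 to 48 and 6 to 8 pairs for both rows.

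With the replicate number as a block the counts were 99, 120, 67 and 304 for UTR minus CDS and 115, 143, 47 and 7 for both rows, and with the block on carcass arrays alone the labelling comparison gave 304. The pairing between carcass groups changed none of these counts by over 1.5 times. In the tissue comparisons, where same-numbered samples had correlations of deviations between -0.15 and 0.17, the samples share only a number.

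Of 976 recomputed values of 62 changes in the named pairs, 971 kept their direction and their side of the call rule, adjusted p and 2-fold together, and 0 turned direction. The other 5 lost their call. UTR minus CDS of Ag.3R.292.0 in heads over carcasses was -1.85 at a pseudocount of 1, and that of Ag.3L.326.0 was -0.78 at a pseudocount of 64 and -0.98 without head replicate 1, from -1.33. At a pseudocount of 64 the CDS rows of Ag.3R.217.0 and Ag.3R.399.0 changed by -0.76 and 0.83 between labellings. Values that kept their call and moved by over 1.5 times did so with the pseudocount. At 64 the rise of Ag.3R.692.0 was 3.30 in hemocytes over carcasses and 3.10 in heads over carcasses, that of Ag.2R.562.0 in hemocytes over heads 1.46, and the CDS rows of Ag.2L.26.0, Ag.2R.507.1, Ag.2R.967.0 and Ag.3L.22.1 changed by 1.82, -2.04, 1.61 and 2.74, from 3.05, -3.19, 2.65 and 4.21. What limits these data is 4 arrays a group, rows near background, probe sets of unknown position, and an authors' summary step that is not known here.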
